A study of Homo sapiens with 6 samples.

Results

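The feedback inhibitors of ERK signalling are described here through 10 genes: the dual-specificity phosphatases DUSP1, DUSP4, DUSP5, DUSP6 and DUSP10, the Sprouty genes SPRY1, SPRY2 and SPRY4, and the Sprouty-related genes SPRED1 and SPRED2. They were taken by name from a table of 51537 genes, and all 10 had 1 row each and passed the filter on low values. The table holds poly(A) RNA of 6 libraries of H3122, a human lung adenocarcinoma line known for an EML4-ALK fusion: 3 of crizotinib-resistant cells and 3 of control cells. The resistant cells were selected in stepwise higher doses, 0.1 to 10 µM, of crizotinib, which inhibits the kinases ALK and MET, while the control cells are the unselected line. By the labels, drug stayed in the medium during selection. They do not say whether the resistant cells were in drug when RNA was taken, whether they are 1 clone, or whether each replicate was its own culture. The p-values therefore cover the spread of these libraries alone, which may be technical.

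Active ERK induces genes whose products shut the pathway down again. Dual-specificity phosphatases remove the activating phosphates from MAP kinases, and differ in the kinase they prefer and in where in the cell they act. Sprouty and SPRED proteins act upstream, at the step between growth factor receptors, RAS and RAF, and SPRED proteins bring neurofibromin, which switches RAS off, to the membrane. The level of DUSP6 and SPRY4 mRNA is commonly used as a readout of ERK activity in tumours driven by receptor kinases. DUSP10 stands apart in the group, because it acts mainly on JNK and p38 kinases.

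The values are TPM, which divide reads by gene length and scale each library to 1000000. Levels can be compared between genes as far as the gene lengths used by the authors hold, and these are not given. The order of levels and the family shares below rest on those lengths. Library depth, rebuilt from the TPM values and gene lengths, was an estimated 29856914 to 36695595 reads, and the 10 genes had an estimated 92 to 9748 reads each per library. Each log2 change is the resistant mean minus the control mean of log2(TPM + 1), with its standard error. The added 1 makes changes of weakly expressed genes look smaller than they are. Adjusted p-values are from limma with Benjamini-Hochberg adjustment over all 16077 tested genes. Genes with an adjusted p below 0.05 are called. Of all tested genes, 24.0% were called higher and 24.7% lower in resistant cells. The libraries had an epithelial profile: 6 epithelial markers summed to 16286 to 17406 TPM in resistant and 15391 to 15994 TPM in control libraries. Most of this sum was KRT8, KRT18 and KRT19, and the markers did not move together. CDH1, KRT19 and CLDN4 were called higher (log2 0.36, 0.34 and 0.15), EPCAM was called lower (log2 -0.36), and KRT8 and KRT18 were not called. The lung lineage markers NKX2-1 and SFTPB were under 1 TPM in all 6 libraries, and NAPSA, the third of these markers, was at 1.22 ± 0.194 TPM in resistant and 1.75 ± 0.336 TPM in control libraries (SD, n = 3 each). Of 8 fibroblast markers, 7 were under 1 TPM in all libraries, with LUM and DCN listed at 0 throughout. The fibroblast sum of 13.7 to 15.0 TPM in resistant and 3.96 to 4.56 TPM in control libraries was nearly all COL1A1. Endothelial markers summed to 5.79 to 7.29 TPM in resistant and 8.06 to 8.94 TPM in control libraries, with KDR listed at 0 and 3 of 5 markers under 1 TPM in all libraries. PECAM1 was at 2.80 ± 0.457 TPM in resistant and 0.912 ± 0.168 TPM in control libraries, the opposite direction to CDH5 at 3.45 ± 0.316 TPM in resistant and 7.24 ± 0.417 TPM in control libraries. Immune markers summed to 9.36 to 12.2 TPM in resistant and 8.64 to 9.06 TPM in control libraries, with LYZ listed at 0 and 3 of 6 markers under 1 TPM in all libraries. The part of these markers in the results was not tested.

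Of the 10 genes, 7 were called lower in resistant cells, 2 were called higher and 1 was not called. All 5 Sprouty and SPRED members fell, while the 5 phosphatases split: DUSP4 and DUSP6 fell, DUSP1 and DUSP5 rose and DUSP10 was not called. The changes were moderate, between -0.98 for SPRY1 and 0.53 for DUSP1 on the log2 scale. The median log2 change was -0.44 over the 10 genes and -0.0044 over all tested genes. With so few genes, and with 48.6% of all tested genes called in one direction or the other, these counts are a description.

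**Figure D1:**
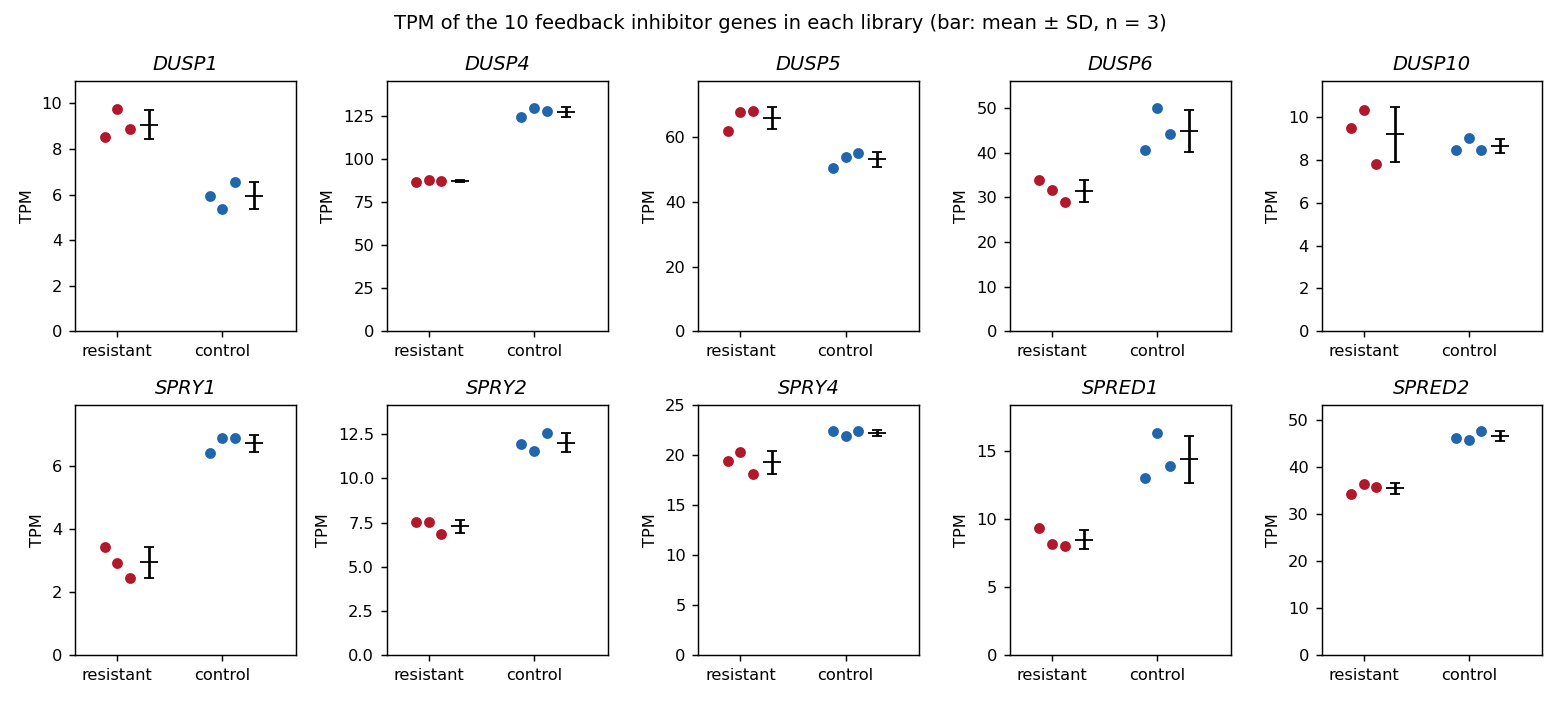
TPM of each gene in the 3 resistant (red, left) and 3 control (blue, right) libraries, 1 point per library, with the mean ± SD beside the points; each vertical axis starts at 0. The groups overlap in 1 panel, DUSP10; the points of DUSP1 and DUSP5 are higher in resistant libraries and those of the other 7 genes lower.

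The nuclear phosphatases went in both directions. DUSP4, which acts on ERK and JNK in the nucleus, was at 86.8, 87.9 and 87.0 TPM in the resistant libraries, against 124, 129 and 128 TPM in the control libraries. It was the most abundant of the 10 genes in both groups, and the lowest control library lay well above the highest resistant one (log2 -0.54 ± 0.04, adjusted p = 3.69e-05). DUSP5, a nuclear phosphatase selective for ERK, was at 62.0, 67.7 and 68.1 TPM in the resistant libraries, against 50.5, 53.8 and 55.0 TPM in the control libraries. Every resistant library was higher than every control library (log2 0.31 ± 0.06, adjusted p = 0.00289), so DUSP5 and DUSP4 were closer to each other in resistant cells. DUSP1, an immediate early gene whose product acts on ERK, JNK and p38, was at 8.53, 9.77 and 8.89 TPM in the resistant libraries, against 5.94, 5.38 and 6.56 TPM in the control libraries. It rose with no overlap between the groups (log2 0.53 ± 0.09, adjusted p = 0.00239) on an estimated 92 to 179 reads per library.

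DUSP6, the cytoplasmic phosphatase selective for ERK, was at 34.0, 31.6 and 28.9 TPM in the resistant libraries, against 40.6, 50.0 and 44.2 TPM in the control libraries. All resistant libraries were lower than all control libraries, and the control libraries were the more spread (log2 -0.50 ± 0.09, adjusted p = 0.00264). DUSP10 was at 9.49, 10.3 and 7.78 TPM in the resistant libraries, against 8.45, 9.04 and 8.44 TPM in the control libraries. The groups overlapped and the gene was not called (log2 0.07 ± 0.10, adjusted p = 0.594). The 95% interval of its change was -0.17 to 0.31, so a change in either direction within these bounds remains possible.

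The Sprouty genes fell by different amounts. SPRY1 was at 3.44, 2.92 and 2.45 TPM in the resistant libraries, against 6.42, 6.89 and 6.88 TPM in the control libraries. It was the least abundant of the 10 genes in resistant cells and had the largest change of them (log2 -0.98 ± 0.11, adjusted p = 3.49e-04), with the resistant mean at 0.436 of the control mean. SPRY2, which binds the ubiquitin ligase CBL, was at 7.50, 7.50 and 6.84 TPM in the resistant libraries, against 11.9, 11.6 and 12.6 TPM in the control libraries, again with no overlap (log2 -0.65 ± 0.07, adjusted p = 2.70e-04). SPRY4, the most abundant Sprouty gene, was at 19.4, 20.3 and 18.1 TPM in the resistant libraries, against 22.4, 21.9 and 22.5 TPM in the control libraries. Its groups were apart but close, and the fall was small (log2 -0.20 ± 0.06, adjusted p = 0.0234). That call was lost with the replicate number as a block (adjusted p = 0.0673). Leaving out 1 library also ended it, with an adjusted p of 0.0812 without resistant replicate 3 and of 0.0516, 0.0507 and 0.0766 without control replicates 1, 2 and 3.

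Both SPRED members fell. SPRED1, mutated in Legius syndrome and a partner of neurofibromin, was at 9.30, 8.14 and 7.98 TPM in the resistant libraries, against 13.0, 16.3 and 13.8 TPM in the control libraries. No resistant library reached the lowest control library (log2 -0.70 ± 0.10, adjusted p = 9.58e-04). SPRED2 was at 34.1, 36.4 and 35.7 TPM in the resistant libraries, against 46.0, 45.7 and 47.7 TPM in the control libraries, with little spread within either group (log2 -0.38 ± 0.05, adjusted p = 3.84e-04). In these bulk libraries, fewer cells with a transcript and less of it per cell cannot be told apart. The groups did not overlap for 7 genes that were lower and 2 that were higher, where 28.7% and 29.2% of all tested genes were lower or higher without overlap, 57.9% together.

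In the order of TPM levels, DUSP4 and DUSP5 came first and second in both groups. In resistant cells SPRED2, DUSP6 and SPRY4 followed, and then DUSP10, DUSP1 and SPRED1, of which DUSP10 overlapped with DUSP1 and DUSP1 with SPRED1 over the libraries. SPRY2 and SPRY1 came last. In control cells SPRED2 and DUSP6 overlapped, as did SPRY1 and DUSP1 at the low end, and every other gene was apart from the next below it.

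Relatives outside the 10 genes were measured as well. SPRED3 was at 4.52, 4.72 and 5.04 TPM in the resistant libraries, against 2.88, 2.48 and 2.34 TPM in the control libraries, so this SPRED gene rose (log2 0.69 ± 0.10, adjusted p = 0.00125) where SPRED1 and SPRED2 fell. SPRY3 was near the filter, at 1.64, 1.05 and 1.36 TPM in the resistant libraries, against 0.756, 0.903 and 0.845 TPM in the control libraries, and was not called (log2 0.35 ± 0.16, adjusted p = 0.113). Among the other phosphatases, DUSP9, a cytoplasmic ERK phosphatase, fell (log2 -0.68 ± 0.11, adjusted p = 0.00195), with 14.5 ± 2.17 TPM in resistant and 23.7 ± 2.13 TPM in control libraries (SD, n = 3 each). DUSP16, which acts on JNK and p38, rose (log2 0.34 ± 0.06, adjusted p = 0.00180), with 22.2 ± 1.11 TPM in resistant and 17.3 ± 0.109 TPM in control libraries. DUSP2, DUSP7 and DUSP8 were not called, at log2 0.03, 0.00083 and -0.13. Over all 10 MAP kinase phosphatases, 3 were called higher and 3 lower, with a median log2 change of 0.016. This is 30% in each direction, where 24.0% of all tested genes were called higher and 24.7% lower.

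**Figure D2:**
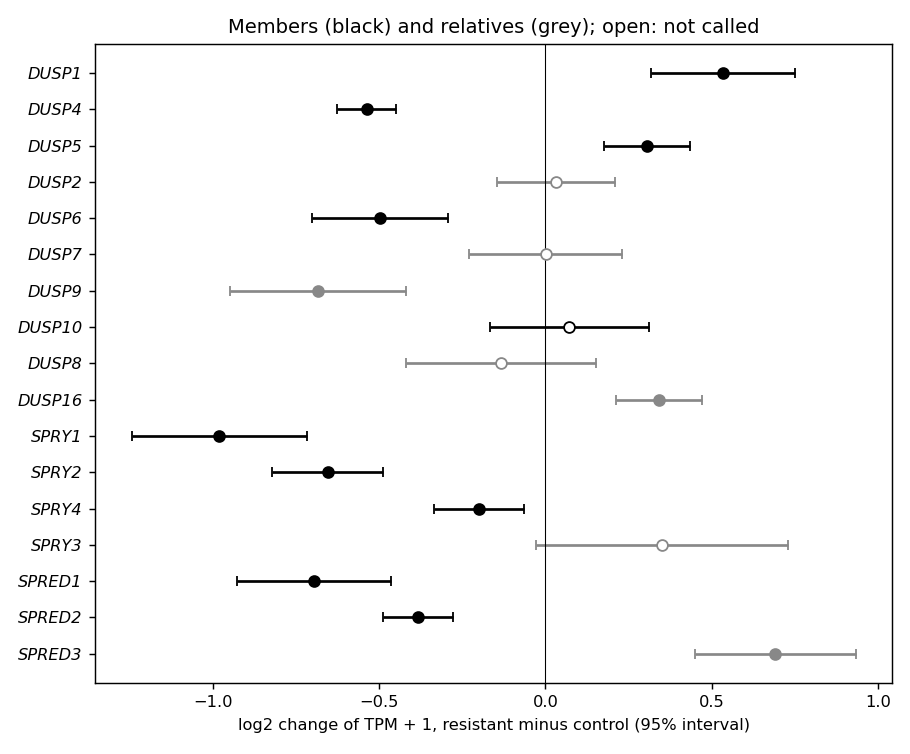
Log2 change of TPM + 1, resistant minus control, with its 95% interval, for the 10 genes (black) and 7 relatives (grey); open points were not called. The black Sprouty and SPRED points lie left of 0 and SPRED3 lies right of it, while the phosphatases lie on both sides.

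The make-up of each family was compared by the share of each gene in the family's summed TPM. The 10 phosphatases summed to 253 ± 6.04 TPM in resistant and 295 ± 11.3 TPM in control libraries. DUSP4 made up 34.4% ± 0.569 in resistant and 43.1% ± 0.773 in control libraries (SD, n = 3 each). DUSP5 made up 26.0% ± 1.14 in resistant and 18.0% ± 0.500 in control libraries, and DUSP6 12.4% ± 1.08 in resistant and 15.2% ± 1.03 in control libraries. The 4 Sprouty genes summed to 30.8 ± 1.82 TPM in resistant and 41.9 ± 0.811 TPM in control libraries. SPRY4 made up 62.5% ± 1.65 in resistant and 53.2% ± 0.731 in control libraries, although its own TPM was lower in resistant cells. SPRY1 made up 9.49% ± 1.14 in resistant and 16.1% ± 0.613 in control libraries, and SPRY2 23.6% ± 0.175 in resistant and 28.7% ± 0.722 in control libraries. The 3 SPRED genes summed to 48.6 ± 0.640 TPM in resistant and 63.4 ± 1.36 TPM in control libraries, with SPRED3 at 9.79% ± 0.493 in resistant and 4.06% ± 0.526 in control libraries. For 15 of 17 shares the groups did not overlap, which with 3 against 3 libraries gives the smallest possible p of an exact two-sided permutation test, 0.1 (0.113 adjusted over the 17 shares), so no share could pass. The shares of SPRED2 and DUSP8 overlapped between the groups (exact permutation p = 0.6 and 0.9). Shares of a family add up to the whole, so the 17 shares are not separate observations. A smaller share of DUSP4 leaves larger shares to its relatives. The shares of DUSP2, DUSP7 and DUSP10 did not overlap, although their TPM did and none of these genes was called.

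**Figure D3:**
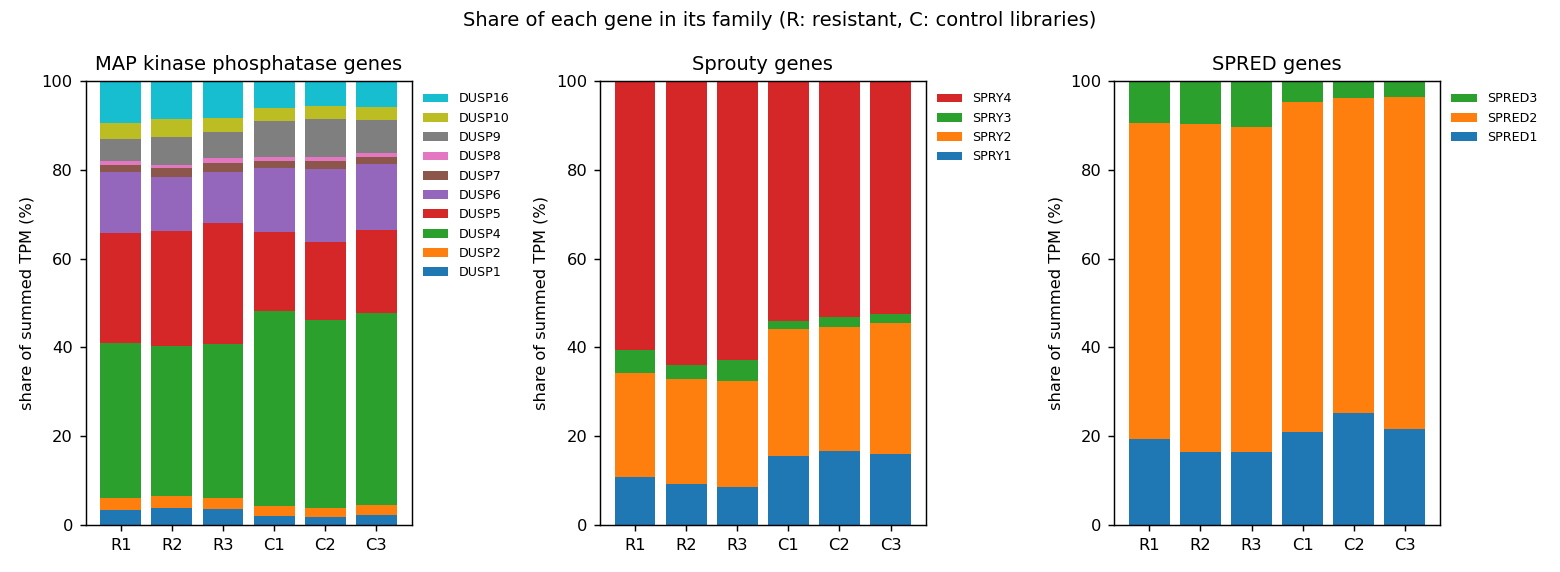
Share of each gene in the summed TPM of its family, in percent, in each resistant (R1 to R3) and control (C1 to C3) library. DUSP5 and SPRY4 take larger shares in resistant libraries, and DUSP4, SPRY1 and SPRY2 smaller ones.

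Promoter windows of the 250 bases before the transcript start were taken from RefSeq (GRCh38.p14) for 8 of the 10 genes, 13 windows in all. Shown are windows that held no exon of GENCODE 29, for the phosphatase that rose most and for the Sprouty genes that fell most: DUSP1 (chr5:172771196-172771445, minus strand), SPRY1 (chr4:123396545-123396794, plus strand, the first of 2 windows) and SPRY2 (chr13:80341127-80341376, minus strand, the first of 3 windows). Capitals mark matches, on either strand, to a cAMP response element (TGACGTCA), an AP-1 site (TGANTCA), an ETS site (CCGGAAG), an EGR site (GCGNGGGCG), a CArG box or a TATA box (TATAAA).
DUSP1: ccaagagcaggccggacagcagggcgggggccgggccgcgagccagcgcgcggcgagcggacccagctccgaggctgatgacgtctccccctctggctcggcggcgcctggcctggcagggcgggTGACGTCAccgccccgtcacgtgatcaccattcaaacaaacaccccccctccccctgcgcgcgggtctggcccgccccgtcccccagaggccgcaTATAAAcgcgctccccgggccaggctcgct
SPRY1: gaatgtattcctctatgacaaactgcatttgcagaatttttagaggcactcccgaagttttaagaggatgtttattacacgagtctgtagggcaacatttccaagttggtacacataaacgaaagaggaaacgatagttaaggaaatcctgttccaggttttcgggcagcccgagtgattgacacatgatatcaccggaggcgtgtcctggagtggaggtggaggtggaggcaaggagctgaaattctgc
SPRY2: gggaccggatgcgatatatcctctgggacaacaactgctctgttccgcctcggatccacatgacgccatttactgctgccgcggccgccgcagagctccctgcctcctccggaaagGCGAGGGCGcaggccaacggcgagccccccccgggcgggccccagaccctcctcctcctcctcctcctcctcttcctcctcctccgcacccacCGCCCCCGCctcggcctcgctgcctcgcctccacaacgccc
The DUSP1 window held a cAMP response element that began 125 bases before the start and a TATA box that began 30 bases before it. The SPRY2 window held EGR matches that began 134 and 41 bases before the start, and the first SPRY1 window held no match. The second SPRY1 window, not shown because it overlaps an exon, held an ETS match that began 67 bases and an EGR match that began 28 bases before its start. The remaining matches were an EGR match in the SPRY4 window and a TATA box in a SPRED2 window. Over the 13 windows, the cAMP response element was in 1, EGR in 3, TATA in 2 and ETS in 1, and AP-1 and the CArG box in 0. Of 35116 RefSeq windows of the same length, 1.65% held the cAMP response element, 8.41% an EGR match, 10.7% a TATA box, 8.52% an ETS match, 6.57% an AP-1 match and 1.16% a CArG box. These matches overlapped no other motif in the windows shown, and they describe letters, not bound factors.

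Each gene was set beside its neighbours on the chromosome, the 10 nearest tested protein-coding genes on each side in GENCODE 29. SPRY2 lies on chromosome 13, where the median log2 change of 195 tested protein-coding genes was -0.52. Its own change of -0.65 was close to the median of its 20 neighbours, -0.48, of which 12 were called lower and 7 were lower than SPRY2 itself. For SPRY1, on chromosome 4, the neighbours had a median of -0.22, and all 20 were above its change of -0.98. Of these neighbours, 9 were called lower and 0 higher, where the median over the tested protein-coding genes of chromosome 4 was -0.03. SPRED1, on chromosome 15, had 19 of 20 neighbours above it, around a median of 0.09. DUSP4 on chromosome 8 and DUSP6 on chromosome 12 each had 18 of 20 neighbours above them, with medians of -0.0064 and -0.04. DUSP1, on chromosome 5, had 19 of 20 neighbours below it, and DUSP5, on chromosome 10, had 16 of 20 below it. SPRED2, on chromosome 2, and SPRY4, on chromosome 5, had 16 and 14 of 20 neighbours above them. The neighbours of SPRED2 were also mostly called lower where called, 8 lower and 1 higher, around a median of -0.05. Those of SPRY4 were called 6 lower and 7 higher. DUSP10, on chromosome 1, had 14 of 20 below it, around a median of -0.095.

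**Figure D4:**
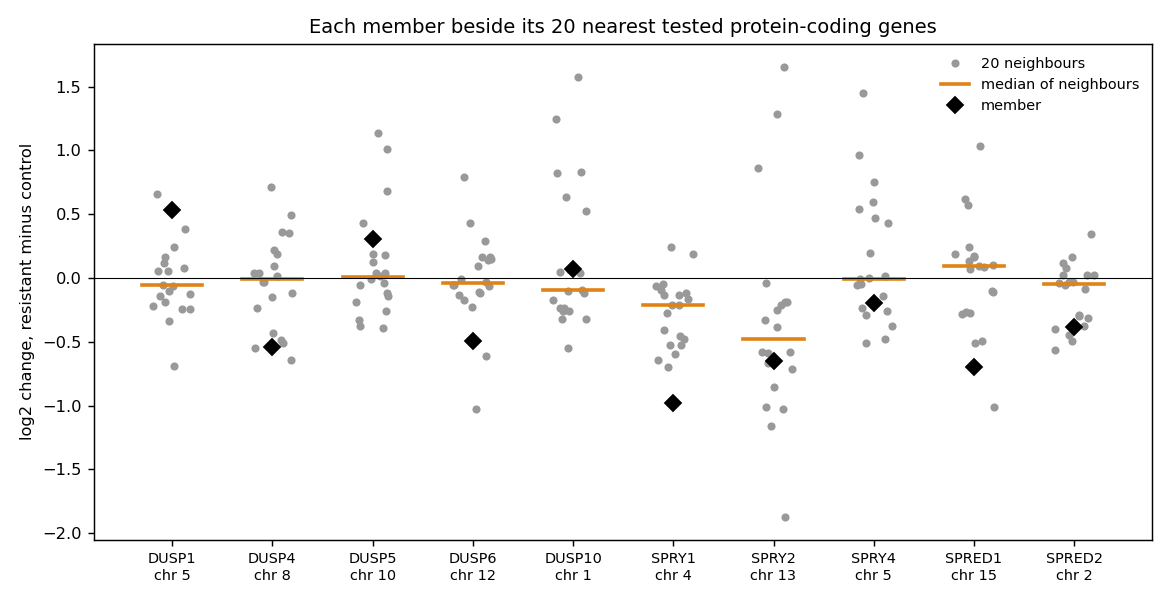
Log2 change, resistant minus control, of each gene (black diamond), its 20 nearest tested protein-coding genes (grey points) and their median (orange line). The neighbours of SPRY2 on chromosome 13 have a median of -0.48. SPRY1 lies below all of its neighbours, which have a median of -0.22.

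The kinase cascade that these genes restrain was measured too. Of 18 genes of the RAS-RAF-MEK-ERK core, 4 were called higher, 7 lower and 7 were not called (median log2 -0.04). These are 22.2% higher and 38.9% lower, where 24.0% and 24.7% of all tested genes were called. BRAF, a RAF kinase, fell to 12.6 ± 1.59 TPM in resistant libraries, against 21.5 ± 1.60 TPM in control libraries (log2 -0.73 ± 0.10, adjusted p = 6.73e-04). SOS1, a RAS activator, fell as well (log2 -0.61 ± 0.08, adjusted p = 7.53e-04). SHC1, an adaptor between receptors and RAS, rose to 213 ± 2.95 TPM in resistant libraries, against 135 ± 4.57 TPM in control libraries (log2 0.65 ± 0.04, adjusted p = 2.32e-05). MAPK3, the gene of ERK1, was named after its value was seen and was not called (log2 0.03). The count of core genes called lower was 4 without a filter on low values, with the replicate block, without trend and robust estimation or without resistant replicate 2, and 3 without resistant replicate 3 or control replicate 2 or 3. The count called higher was 2 without resistant replicate 2 or 3.

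Of 10 tested genes of JNK and p38 kinases and of the kinases that activate them, 4 rose and 4 fell (median log2 0.0074). This is 40% in each direction, where 24.0% of all tested genes were called higher and 24.7% lower. MAPK11 and MAPK12, genes of p38 beta and p38 gamma, rose (log2 1.40 ± 0.05, adjusted p = 2.71e-06, and log2 0.79 ± 0.06, adjusted p = 4.49e-05). MAPK8, the gene of JNK1, and MAP2K7, which activates JNK, fell (log2 -0.60 ± 0.08, adjusted p = 8.10e-04, and log2 -0.45 ± 0.05, adjusted p = 3.31e-04).

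Of 11 partners of Sprouty and SPRED proteins, 3 rose and 3 fell (median log2 0.08). This is 27.3% in each direction, where 24.0% of all tested genes were called higher and 24.7% lower. NF1, which encodes neurofibromin, rose to 15.3 ± 1.65 TPM in resistant libraries, against 11.0 ± 0.459 TPM in control libraries (log2 0.44 ± 0.08, adjusted p = 0.00401), where its partners SPRED1 and SPRED2 fell. CAV1, the gene of the membrane protein caveolin 1, rose (log2 0.42 ± 0.05, adjusted p = 5.21e-04), while CBL (log2 -0.27 ± 0.06, adjusted p = 0.00735) and the phosphatase gene PTPN11 (log2 -0.23 ± 0.07, adjusted p = 0.0309) fell. Only 1 partner was called lower without resistant replicate 3 or control replicate 2 or 3. Among 17 other negative regulators of receptor and RAS signalling, 4 rose and 6 fell (23.5% and 35.3%, median log2 -0.0092). CBLB, a ubiquitin ligase related to CBL, rose (log2 0.73 ± 0.06, adjusted p = 6.85e-05), and the RAS GTPase activators RASA2 and RASA3 fell (log2 -0.32 ± 0.08, adjusted p = 0.0114, and log2 -0.38 ± 0.06, adjusted p = 0.00180). RASA3 lies on chromosome 13, where the median log2 change of the tested protein-coding genes was -0.52. Of 9 tested atypical dual-specificity phosphatases, 2 rose and 1 fell (22.2% and 11.1%, median log2 0.08). DUSP13 rose to 19.4 ± 1.62 TPM in resistant libraries, against 7.98 ± 0.420 TPM in control libraries (log2 1.18 ± 0.08, adjusted p = 2.93e-05). At least 1 of the counts of atypical phosphatases moved by over 1.5 times under 6 of 13 alternatives, and with limma-voom on rebuilt reads 5 rose and 2 fell.

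Of 18 tested transcriptional targets and effectors of ERK outside the 10 genes, 6 rose and 6 fell (median log2 -0.0088). This is 33.3% in each direction, where 24.0% of all tested genes were called higher and 24.7% lower, and with so few genes the counts are a description. The even split depends on the filter: without a filter on low values, 5 were called higher and 8 lower. EREG (0.166 TPM in resistant, 1.08 TPM in control libraries) and EGR3 (0.298 and 0.855 TPM) were lower but did not pass the filter. ETV1 (0.157 and 0.040 TPM) was higher and did not pass it either. EGR1, an immediate early transcription factor, was at 15.1, 19.1 and 19.4 TPM in the resistant libraries, against 51.1, 57.5 and 59.8 TPM in the control libraries (log2 -1.60 ± 0.10, adjusted p = 2.89e-05). HBEGF, an EGFR ligand, was at 14.3, 11.6 and 13.1 TPM in the resistant libraries, against 4.56, 3.56 and 2.93 TPM in the control libraries (log2 1.59 ± 0.14, adjusted p = 9.23e-05). AREG and LIF rose too (log2 1.31 and 1.14). Several genes that are often read together with DUSP6 and SPRY4 were named after their values were seen. ETV5, an ETS factor, fell (log2 -0.43 ± 0.04, adjusted p = 2.15e-04) and so did CCND1, the gene of cyclin D1 (log2 -0.34 ± 0.04, adjusted p = 4.55e-04), and FOS (log2 -0.49 ± 0.05, adjusted p = 2.26e-04). ETV4 and PHLDA1 were not called (log2 -0.05 and 0.09), and EPHA2 rose (log2 0.96 ± 0.05, adjusted p = 1.51e-05). The genes named here are only a part of the list. Also on it, FOSL1 and IER3 rose (log2 0.35 and 0.17), EPHA4 fell (log2 -0.62), and MYC, JUNB and IER2 were not called.

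Genes annotated over a member on the opposite strand could share its reads, since the kit was stranded but the strand setting of the authors' counting is not given in the sources used here. An antisense gene over SPRY4 was at 1.59, 1.64 and 1.65 TPM in the resistant libraries, against 1.03, 1.30 and 0.368 TPM in the control libraries. One over DUSP1 was under 1 TPM in all 6 libraries, and an antisense gene annotated over DUSP6 was not analysed here.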

How the data were processed

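Poly(A) RNA of 3 crizotinib-resistant and 3 control H3122 libraries was measured. The authors deposited TPM values per gene, 1 column per library, and used HISAT2, per the submitters' processing notes. The HISAT2 version, gene counter, gene lengths, build and filters: not given in the sources used here. Columns were matched to libraries by name. Depth was estimated by multiplying TPM by union exon lengths of GENCODE 29 and dividing by the smallest step of the library; 66.9% to 67.6% of values above 0 were then whole within 0.01 read, so these depths are estimates.

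The 16077 genes that reached 1 TPM in 3 or more libraries were tested with limma 3.58.1 in R 4.3.3 (statmod 1.5.0) on log2(TPM + 1) of all 6 libraries, with trend and robust empirical Bayes, two-sided, and adjusted by Benjamini-Hochberg. The fit was also run on simulated data with far fewer changed genes than were called here, so that run gives no error rate for these data. Shares were compared with exact permutation tests. The 10 genes and the gene lists were chosen with earlier results of these data known, and their counts carry no set test. Of each list, up to 4 called genes with at least 5 TPM in the higher group were named, by size of change, or the most abundant where fewer than 2 were called. Some genes of the lists, also among those this rule picks, are not reported here. 1 list member, DUSP14, was not matched. The labels name no batch. Alternatives were a pseudocount of 0.1, other filters, median-ratio scaling, the replicate block, limma-voom on rebuilt reads, plain empirical Bayes and leaving out each library.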

Additional observations from a re-analysis of the deposited data

How the results depend on the processing

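Of the 10 genes, 8 kept their call and direction under all 13 alternatives: DUSP1, DUSP4, DUSP5, DUSP6, SPRY1, SPRY2, SPRED1 and SPRED2. The other two were SPRY4 and DUSP10. SPRY4 kept its direction (log2 -0.20 with the replicate block, adjusted p = 0.0673) but lost its call there and without any of 4 libraries; over the libraries left out its change was -0.24 to -0.16. DUSP10, never called, ranged over -0.0064 to 0.18, the lowest without resistant replicate 2. The replicate numbers did not pair the libraries: deviations of same-numbered libraries correlated at -0.058, -0.0017 and -0.016, and no library correlated best with its own number. The block gave 3433 genes higher and 3423 lower, against 3852 and 3963 without it, and changed no other call among the 10 genes.

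Some list counts moved by over 1.5 times, while the MAP kinase phosphatases stayed at 3 higher and 3 lower under all 13 alternatives. The core called lower was 4 without a filter, with the replicate block and without trend and robust estimation, and over the libraries left out 3 to 7 were lower and 2 to 4 higher. Atypical phosphatases called higher were 1 with at least 5 TPM and 5 with limma-voom, and those called lower 2 with median-ratio scaling and with limma-voom; over the libraries left out 1 to 2 were higher and 0 to 2 lower. Sprouty and SPRED genes called higher were 0 with at least 5 TPM, where SPRED3 is not tested, and 2 with limma-voom and without trend and robust estimation. Partners called lower were 1 to 3 over the libraries left out. The share difference of SPRED2 was -1.73 to 0.261 percentage points and that of DUSP8 -0.0584 to 0.0834 over the libraries left out. With 25 neighbours on each side, the medians were -0.19 for DUSP10, 0.067 for SPRY4 and 0.0087 for SPRED2. Except where stated, the cause was not tested. TPM keeps no depth and the rebuilt reads are estimates, so counting error was not separated from other spread. SPRY1 and DUSP1 rest on the fewest estimated reads.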
